A study of Rattus norvegicus with 4 samples.

Results

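The 10 genes described here carry iron into the rat macrophage line NR8383, store it, release it or sense it. They are Tfrc, Steap3, Slc11a2 and Slc11a1 for uptake, Fth1, Ftl1 and Ncoa4 for storage, Slc40a1 for export, and Aco1 and Ireb2 for control. They were chosen by name, with earlier results of these data known. Their probes were found by matching the accession of each array probe to rat RefSeq transcripts, which gave 14 probes for the 10 genes, of 16581 genes with a symbol. NR8383 is a line of alveolar macrophages obtained by lavage of a healthy rat's lung, and it grows as a mixture of attached and floating cells. After 20 passages and 48 h of seeding the cells received 9.25 µg/mL of NiZnFe2O4, whose formula names nickel, zinc, iron and oxygen, for 4 h. RNA from 4 biological replicates was read on Agilent arrays with a single dye, 1 array each, and these form 1 group. The design also names cells kept without the particles. Their arrays were not analysed here, so the values show what exposed cells held and not what exposure changed.

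In mammalian cells, iron bound to transferrin enters through the transferrin receptor, is reduced in endosomes by Steap3 and crosses into the cytosol through Slc11a2. Macrophages also take up iron by engulfing particles and red cells, and Slc11a1 moves metal ions out of the phagosome. Iron not in use is held in shells of the ferritin heavy and light chains, which are broken down in lysosomes when Ncoa4 delivers them. Ferroportin, the product of Slc40a1, is the exporter of free iron. The iron regulatory proteins encoded by Aco1 and Ireb2 bind stem-loops in transcripts when iron is scarce, stabilising Tfrc messenger RNA and blocking translation of ferritin and ferroportin. Part of this control therefore acts on translation, which an array of transcript levels does not measure.

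Each array had 58717 spots for rat transcripts, of which between 21812 and 24981 were well above background, and none of them was saturated. The headers rated replicates 1 and 3 as in range and replicates 2 and 4 as to be evaluated. Macrophage identity was checked with 15 markers, of which 11 were well above background on every array, including Cd68, Lyz2, Csf1r, Tyrobp and Spi1, while Adgre1, Marco and Cd163 passed on none. None of 6 lung epithelial, 4 granulocyte and 3 liver markers passed on all 4 arrays. Of the red cell markers, Hba-a1 passed on all 4 arrays, Slc4a1 passed on 1 array, and Hbb and Alas2 passed on no array. Nkg7 and Cdh5 passed among 7 measured lymphocyte, fibroblast and endothelial markers. The part of these transcripts in the values below was not tested.

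Of the 10 iron genes, 7 passed on all 4 arrays (well above background by the scanner software's flag), namely Tfrc, Slc11a2, Slc11a1, Fth1, Ftl1, Ncoa4 and Aco1. Over all genes with a symbol the share was 38.7%. Steap3 and Ireb2 passed on 2 arrays each, where 9.85% of all genes passed on 1 to 3, and Slc40a1 passed on none, as did 51.4% of all genes. The count stayed at 7 without replicates 2 and 4. Signals are in the scanner's intensity units, and levels are log2 signals minus the 75th percentile over all probes of the same array, so that a level of 0 equals that percentile. Because a probe's brightness depends on its sequence, the level of 1 gene cannot be read against that of another.

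**Figure D1:**
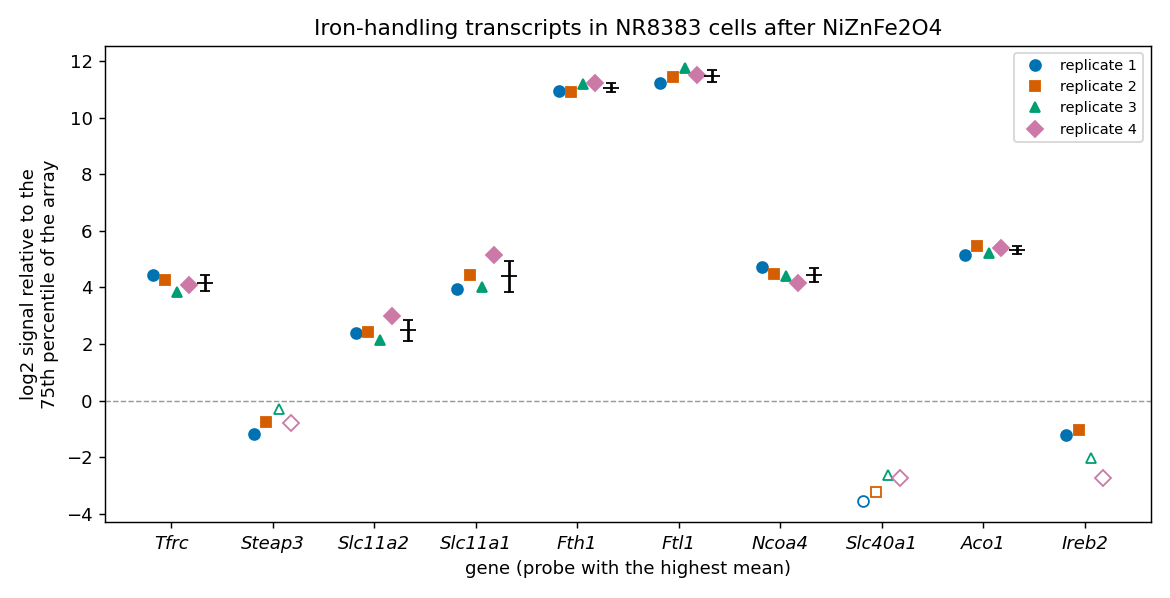
Log2 level (vertical axis, relative to the 75th percentile of the array, dashed at 0) of the probe with the highest mean of each of the 10 genes in the 4 exposed replicates. Symbols are filled where the probe was well above background on that array, and bars show the mean and SD of 4 replicates. The 7 genes that passed on all arrays lie above 0, Steap3 and Ireb2 are filled on replicates 1 and 2, and Slc40a1 is open on every array.

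Of the entry route through transferrin, the receptor gene Tfrc and the carrier gene Slc11a2 passed on all 4 arrays. Tfrc had signals of 909, 635, 333 and 422 intensity units on replicates 1 to 4. After scaling, its levels were 4.45, 4.28, 3.83 and 4.09, with a mean of 4.16 ± 0.27 (SD, n = 4). Replicate 1 was highest and replicate 3 lowest, both before and after scaling. The Tfrc probe was printed in 2 spots, which differed by 0.01, 0.01, 0.03 and 0.04 log2 units on replicates 1 to 4, so the spread between arrays exceeded that between spots of the same array. Without replicate 3 the SD was 0.18.

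Steap3, the ferric reductase of the transferrin endosome, lay close to the limit of the assay. Its signals were 18.4, 19.5, 19.1 and 14.3 intensity units. It was well above background on replicates 1 and 2 but not on replicates 3 and 4, although the signal of replicate 3 lay between those of replicates 1 and 2. The raw spot medians of 55, 53.5, 52 and 56 stood over local backgrounds of 29, 29, 28 and 32 on replicates 1 to 4. By the looser flag, which asks only that a spot be positive and significant against background, Steap3 passed on all 4 arrays, as did 50.9% of all genes.

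Slc11a2, the proton-coupled iron carrier also known as DMT1, was measured by 2 probes. The brighter had signals of 218, 175, 103 and 197 intensity units and levels of 2.39, 2.42, 2.14 and 2.99, with a mean of 2.48 ± 0.36 (SD, n = 4). The other had levels of 2.22, 2.44, 2.37 and 2.70 and a mean of 2.43 ± 0.20 (SD, n = 4). Both probes were highest on replicate 4. They differed in the lowest array, replicate 3 for the brighter probe and replicate 1 for the other. Slc11a2 is known to give transcripts with and without an iron-responsive stem-loop, and which of them these probes bind was not examined.

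Slc11a1, also known as NRAMP1, is the related carrier of the macrophage phagosome and had the widest spread of the 7 genes on the scaled values. Without scaling its SD of 0.52 was below those of Tfrc and Ncoa4, at 0.64 and 0.60, with spike-in centring its 0.47 was below those of 4 genes, up to 0.80 for Ncoa4, and without replicate 4 its 0.27 was below the 0.32 of Tfrc. Slc11a1 was measured by 1 probe in 1 spot, so no second probe could be set beside it. Its signals were 641, 714, 380 and 883 intensity units. After scaling, its levels were 3.95, 4.45, 4.01 and 5.16, with a mean of 4.39 ± 0.56 (SD, n = 4). Replicate 4 stood 0.77 log2 units above the mean and the other 3 arrays between -0.45 and 0.06 from it. This SD was larger than that of 96.4% of the 6418 genes above background, and it was 0.27 without replicate 4. The software's own error estimate for the spot was 0.14 log2 units. It was 0.14 or 0.15 for every probe of the 7 genes, so it does not set this spot apart. The median deviation of the spots around it was at most 0.05 log2 units in size on any array.

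Both ferritin chains gave bright signals. The brighter Fth1 probe, for the heavy chain that oxidises ferrous iron on its way into the shell, had 82037, 62004, 54839 and 59391 intensity units. Its levels were 10.94, 10.89, 11.19 and 11.23, with a mean of 11.06 ± 0.17 (SD, n = 4), and the arrays lay within 0.34 log2 units. The SD was 0.25 without scaling and 0.42 with spike-in centring. Replicate 1 had the highest signal before scaling and replicate 4 the highest level after it.

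Ftl1, the light chain that helps to seed the mineral core, had signals of 100347, 89863, 81803 and 72312 intensity units with its brighter probe. Its levels were 11.23, 11.42, 11.77 and 11.51, with a mean of 11.48 ± 0.22 (SD, n = 4). The SD was 0.20 without scaling and 0.50 with spike-in centring. Replicate 3 was the highest after scaling and replicate 1 before it. The brightest member spot, at 100347, stayed below the scanner's saturation value of 779293. Ferritin genes have many copies: the rat RefSeq table names 6 further Fth1 and 21 further Ftl1 loci, of which 5 and 15 are pseudogenes. None of these copies has a probe of its own that could be matched here, and signals of near-identical transcripts cannot be told apart from those of Fth1 and Ftl1.

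The second ferritin probes departed from the first on a single array. For Fth1 the brighter probe exceeded the other by 0.23, 0.11 and 0.14 log2 units on replicates 1 to 3 and by 1.22 on replicate 4. The other probe had 70133, 57634, 49641 and 25457 intensity units, so on replicate 4 it was the lower by far while the brighter probe was not. For Ftl1 the differences were 0.20, 0.21 and 0.15 on replicates 1 to 3 and 0.56 on replicate 4. Without replicate 4 the SD of the difference was 0.06 for Fth1 and 0.03 for Ftl1. With the second probe the SD of Fth1 was 0.44 in place of 0.17. For Slc11a2 the differences were 0.17, -0.02, -0.24 and 0.29, with no array apart from the rest.

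**Figure D2:**
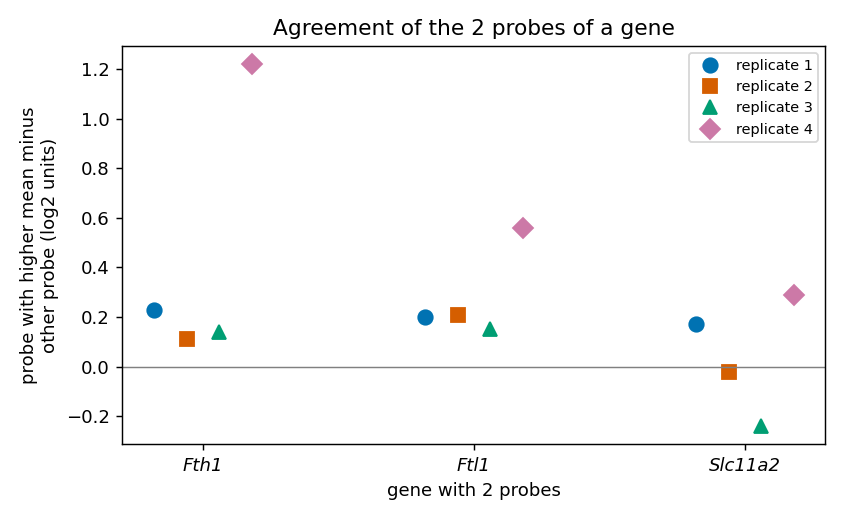
Difference between the log2 signals of the 2 probes of Fth1, Ftl1 and Slc11a2 (vertical axis, probe with the higher mean minus the other) on each of the 4 exposed replicates. For both ferritin genes replicate 4 lies above the other 3, at 1.22 and 0.56 log2 units.

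Such differences were set beside those of other genes. Among 812 genes with exactly 2 probes above background on all arrays, the SD over arrays of the difference between probes had a median of 0.24 log2 units. It was 0.53 for Fth1, above 89.3% of these genes, 0.19 for Ftl1 and 0.23 for Slc11a2. Over the 812 genes, the median absolute deviation from a gene's own median difference was 0.16, 0.09, 0.10 and 0.18 on replicates 1 to 4. A deviation above 1 log2 unit was found for 20, 13, 3 and 14 genes on replicates 1 to 4, with Fth1 among the 14 on replicate 4, at 1.04. Ftl1 deviated by 0.35 on that array.

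Ncoa4, the receptor that hands ferritin to the lysosome, was present with a single probe. Its signals were 1099, 735, 492 and 439 intensity units and its levels 4.72, 4.49, 4.39 and 4.15, with a mean of 4.44 ± 0.24 (SD, n = 4). Replicate 1 was highest and replicate 4 lowest, before and after scaling. The SD lay near the median of all genes above background.

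No signal above background was found for the exporter. The 2 Slc40a1 probes had 3.6, 3.5, 3.8 and 3.8 intensity units and 3.4, 3.1, 3.6 and 3.6 intensity units. The 308 negative control spots had medians of 3.56, 3.10, 3.73 and 3.64 on the same arrays. The lowest signal of any probe that passed was 9.2, 11.7, 13.0 and 9.8 intensity units. Slc40a1 therefore has only an upper bound here, and the variation of its scaled values between arrays comes from the scaling of a floor. The raw spot medians of the first probe, 38.0, 30.0, 34.0 and 35.0 stood over local backgrounds of 30.0, 28.5, 28.0 and 28.0.

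**Figure D3:**
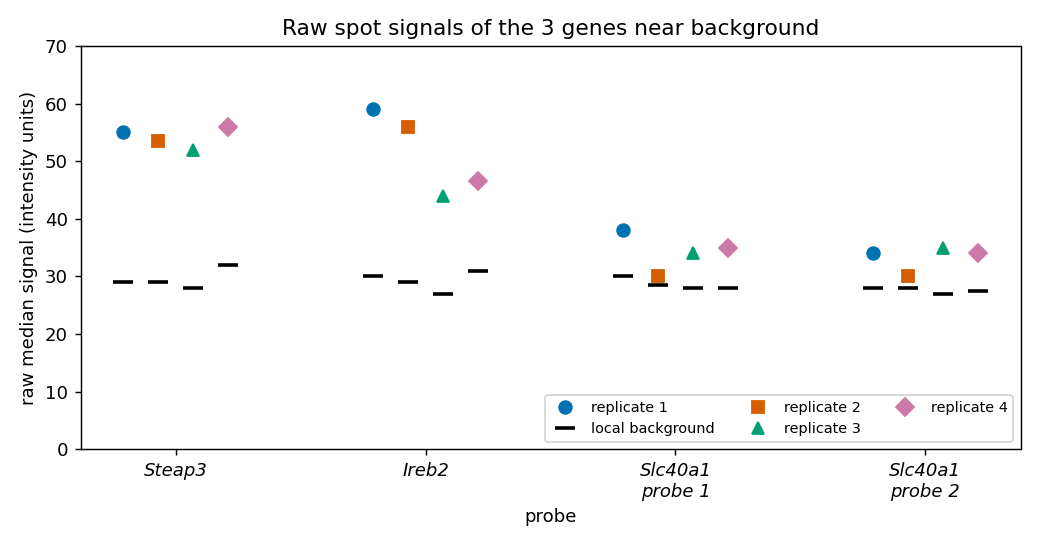
Raw median signal of the spot (symbols, intensity units) and of its local background (black bars) for Steap3, Ireb2 and the 2 Slc40a1 probes on the 4 exposed replicates. Steap3 stands clear of its background by a similar amount on every array, Ireb2 is nearer to it on replicates 3 and 4, and the Slc40a1 spots lie just over it.

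The promoters of Tfrc and Slc40a1 are shown because these genes fell on opposite sides of the background limit. They encode the receptor for iron bound to transferrin and the exporter of free iron. Both promoters are the 250 bases before the transcript start in RefSeq, build GRCr8, written 5′ to 3′ on the strand of the gene. The Tfrc window lies at chr11:81690319-81690568 and the Slc40a1 window at chr9:55543461-55543710, both on the minus strand. Capitals mark matches on either strand to ACGTG, the core bound by hypoxia-inducible factors, TGACNNNGC, the antioxidant response core, GGGCGG, the GC box, and TATAA, the TATA box.
Tfrc: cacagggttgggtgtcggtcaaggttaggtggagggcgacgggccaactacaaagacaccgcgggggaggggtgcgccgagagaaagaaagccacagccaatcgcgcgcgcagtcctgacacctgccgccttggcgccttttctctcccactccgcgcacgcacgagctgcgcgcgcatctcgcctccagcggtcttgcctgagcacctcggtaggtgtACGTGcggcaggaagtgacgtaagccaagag
Slc40a1: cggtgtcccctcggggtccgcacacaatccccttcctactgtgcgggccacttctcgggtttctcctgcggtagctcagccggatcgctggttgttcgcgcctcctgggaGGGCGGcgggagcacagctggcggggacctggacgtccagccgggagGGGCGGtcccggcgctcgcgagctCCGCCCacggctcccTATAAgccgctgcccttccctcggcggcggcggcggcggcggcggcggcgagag
The Tfrc window held 1 ACGTG match, starting 31 bases before the transcript start, and none of the other 3 motifs. The Slc40a1 window held 3 GGGCGG matches and 1 TATAA match, and the TATAA match started 54 bases before the start. Of 33469 windows of this length, 16.6% held ACGTG, 10.1% TGACNNNGC, 30.5% GGGCGG and 24.0% TATAA. Windows were found for 7 of the 10 genes, and among them TGACNNNGC matched once, in that of Ncoa4. A match is a run of letters and no evidence that a factor binds.

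The iron regulatory proteins differed in whether they could be measured. Aco1 encodes the cytosolic aconitase that becomes IRP1 when it loses its iron-sulphur cluster. Its signals were 1484, 1463, 879 and 1051 intensity units and its levels 5.16, 5.48, 5.23 and 5.41, with a mean of 5.32 ± 0.15 (SD, n = 4). The software's error estimate for the spot was 0.14 log2 units, as it was 0.14 or 0.15 for every probe of the 7 genes. The SD was 0.37 without scaling and 0.59 with spike-in centring. On the unscaled signals the arrays split into replicates 1 and 2 above replicates 3 and 4, and after scaling they did not.

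Ireb2 encodes IRP2, which is removed by proteolysis when iron is plentiful. Its signals were 18.2, 16.1, 5.8 and 3.7 intensity units, and it was well above background on replicates 1 and 2 but not on replicates 3 and 4. The spot medians were 59.0, 56.0, 44.0 and 46.5 over local backgrounds of 30.0, 29.0, 27.0 and 31.0. By the looser flag it passed on 3 arrays. Because 2 of 4 values are at or near the floor, no mean or SD is given.

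The spread between replicates shows how closely the arrays repeated each level under the main processing. It does not cover shifts of a level with the processing or the probe. With normexp background correction all 7 levels were lower, as for Fth1 at 9.45 in place of 11.06 and Aco1 at 3.64 in place of 5.32. With its second probe the level of Fth1 was 10.64. The median SD of the 7 genes was 0.24 log2 units, against 0.23 over all 6418 genes above background, whose SDs ran from 0.10 at the 10th to 0.43 at the 90th percentile. How near the 2 medians lay depended on the processing. They were 0.31 and 0.22 with quantile normalization and 0.50 and 0.57 with spike-in centring. Aco1, Fth1 and Ftl1 lay below the median of all genes and Ncoa4, Tfrc, Slc11a2 and Slc11a1 above it. For the genes with a second probe above background the side depended on the probe. With that probe the SD was 0.44 for Fth1 and 0.29 for Ftl1, above the median, and 0.20 for Slc11a2, below it. For 1630 probes printed in 2 or more spots, the median SD between spots of an array was 0.07 and that between arrays 0.18. No level of the 7 genes had 1 array apart from the other 3 by Dixon's ratio, where 4.92% of all genes had. All 15 member spots lay in areas whose median deviation was between -0.07 and 0.05 log2 units on every array. Elsewhere the local median reached -1.10, on replicate 2.

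**Figure D4:**
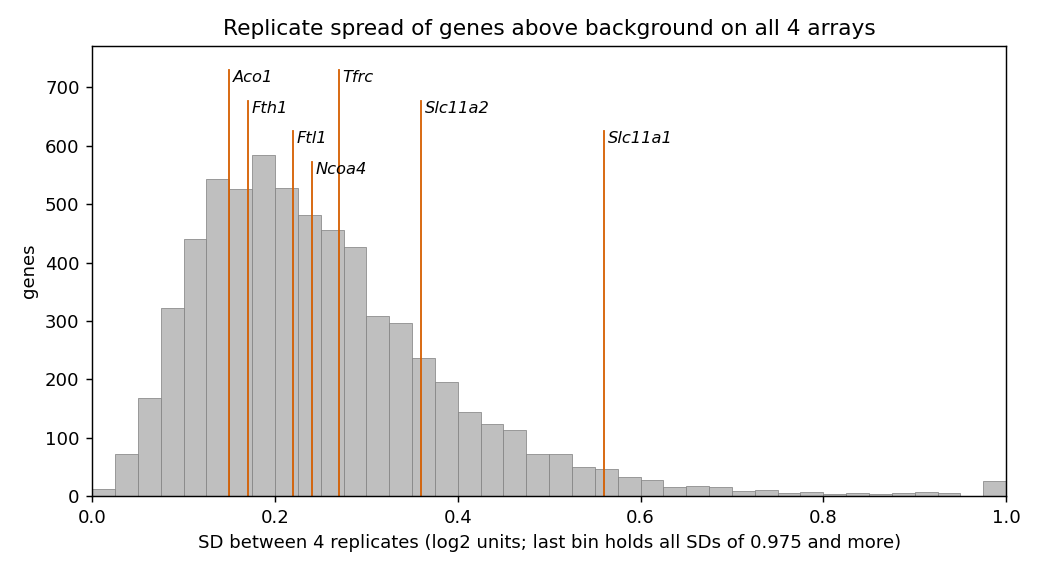
Number of genes (vertical axis) by SD between the 4 exposed replicates (horizontal axis, log2 units) for the 6418 genes above background on all arrays. Vertical lines mark the 7 iron genes, each by its probe with the highest mean, from Aco1 at 0.15 to Slc11a1 at 0.56.

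The deviations of the 7 genes did not share an order of arrays. Relative to its own mean, Tfrc deviated by 0.29, 0.12, -0.34 and -0.07 log2 units on replicates 1 to 4, Slc11a1 by -0.45, 0.06, -0.38 and 0.77, and Fth1 by -0.12, -0.17, 0.13 and 0.17. Replicate 4 held the highest value for Slc11a1, Slc11a2 and Fth1, replicate 1 for Tfrc and Ncoa4, replicate 2 for Aco1 and replicate 3 for Ftl1. These are the probes with the highest mean. The second Fth1 probe was instead lowest on replicate 4, at -0.63 from its mean, and highest on replicate 3. With 4 arrays no correlation between genes is given.

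**Figure D5:**
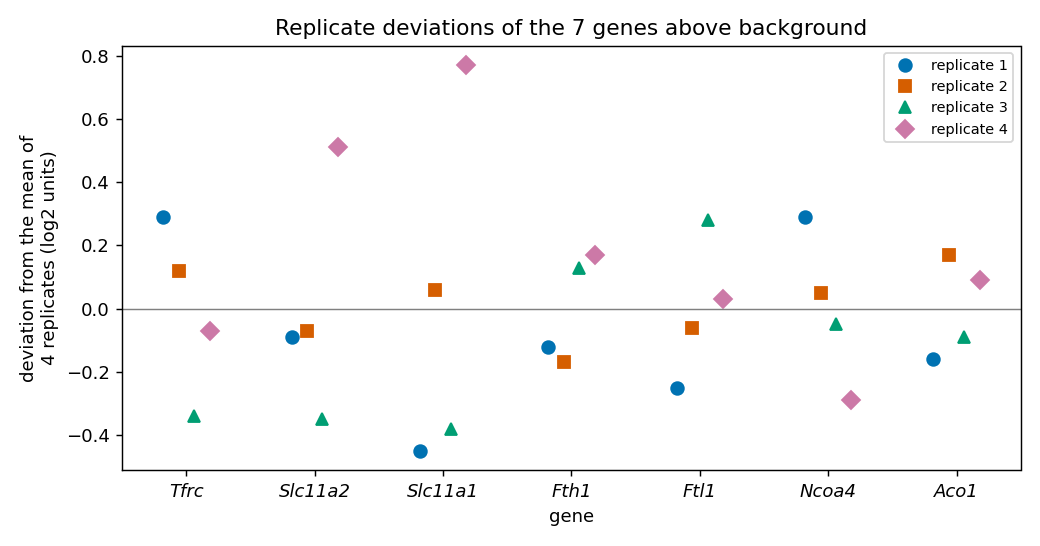
Deviation of each of the 7 genes above background (probe with the highest mean) from its mean over 4 exposed replicates (vertical axis, log2 units), by replicate. Slc11a1 and Slc11a2 have replicate 4 at the top, at 0.77 and 0.51, while Tfrc and Ncoa4 have replicate 1 at the top, at 0.29 each.

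A difference between the log2 signals of 2 genes within an array is not altered by subtracting a value from the whole array, so its spread was examined for fixed pairs. The difference between Fth1 and Ftl1, the chains of 1 protein shell, had an SD over arrays of 0.16 log2 units and stayed within 0.29. With the second probe of each it was 0.27. The difference between Slc11a1 and Slc11a2 had an SD of 0.26, and the genes alone had SDs of 0.56 and 0.36. It was 0.37 with the second Slc11a2 probe, whose own SD was 0.20. It was 0.14 without replicate 1 and 0.24 without replicate 4, where Slc11a2 alone had 0.15.

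The difference between the receptor gene Tfrc and the store gene Fth1 had an SD of 0.42, and of 0.23 with quantile normalization and 0.55 with the second Fth1 probe. With the brighter Fth1 probe it deviated from its mean by 0.41 and 0.29 on replicates 1 and 2. The deviations were -0.46 and -0.23 on replicates 3 and 4, a range of 0.87 log2 units. This order of arrays depended on the probe. The second Fth1 probe was lowest on replicate 4, at a level of 10.01, and with it the difference was highest on that array. Whether the cells or the arrays differed was not tested. The difference between Tfrc and Slc11a1 had an SD of 0.64, with deviations of 0.73, 0.06, 0.04 and -0.83 on replicates 1 to 4. Without replicate 4 that SD was 0.39. The other pairs chosen, Aco1 with Ireb2 and Tfrc with Steap3, gave no value because 1 gene of each was not above background on every array.

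A wider list of 41 iron and haem genes placed the 10 in their pathway. Of 35 with a probe, 14 passed on every array, 5 on between 1 and 3 arrays and 16 on no array. At 40% this share was near the 38.7% of all genes. The median SD of the 14 was 0.24 log2 units, against 0.23 over all genes above background.

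Among genes for iron import and reduction, 4 of 10 passed. Slc39a8, a metal importer of the plasma membrane, stood at 1.68 ± 0.37 and Mcoln1, an ion channel that lets iron out of lysosomes, at 4.23 ± 0.15 (SD, n = 4 each). Lrp1, an endocytic receptor that takes up haem bound to haemopexin, stood at 0.46 ± 0.25 (SD, n = 4). Tfr2, the second transferrin receptor, passed with 1 of its 2 probes. Slc39a14 and all 3 further STEAP reductase genes, Steap1, Steap2 and Steap4, passed on no array, nor did Cybrd1 or the haemoglobin scavenger receptor gene Cd163. Of these, Slc39a14 alone passed on all 4 arrays by the looser flag, as did 50.9% of all genes.

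Of 6 measured carrier genes only Lcn2 passed, at 8.57 ± 0.41 (SD, n = 4). Its product binds the siderophores with which bacteria collect iron. The ferroxidase genes Heph and Cp, which load exported iron onto transferrin, passed on no array and on 2 arrays. By the looser flag Cp passed on all 4 arrays. Pcbp2, a cytosolic iron chaperone, stood at 4.49 ± 0.24 (SD, n = 4).

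For mitochondrial iron, 4 of 6 genes passed. Slc25a28, a carrier of iron into mitochondria, stood at 4.45 ± 0.08, while its relative Slc25a37 passed on no array. The iron-sulphur assembly genes Iscu and Nfs1 stood at 3.58 ± 0.27 and 2.01 ± 0.19 (SD, n = 4 each). In haem handling, Alas1, the first enzyme of haem synthesis outside red cells, stood at 6.85 ± 0.17, Fech, the last, at 2.43 ± 0.06 and Slc48a1, which releases haem from the phagolysosome, at 3.49 ± 0.43 (SD, n = 4 each). Hamp, which encodes the hormone hepcidin that removes ferroportin from the membrane, passed on 1 array, and Hfe, a partner of the transferrin receptor, passed on all 4 with 1 of its 2 probes.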

How the data were processed

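Per the submitters' processing notes, spots were read by the authors in Agilent Feature Extraction (version 11.0.1.1). The deposited intensities are background-subtracted processed signals on a linear scale with a floor at low values, not scaled between arrays, per the file headers; raw medians, an error estimate and flags coded 0 or 1 were deposited too. All 4 arrays share 1 slide and 1 scan time, and the array design names build rn4. The 4 samples form 1 group, so no test between groups was made.

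Control spots (4259 per array) and outlier spots (491 to 828) were left out, and spots of a probe were averaged on the log2 scale. A probe passed when at least 0.5 of its spots were flagged well above background, and a gene when any probe passed on all 4 arrays. The probe with the highest mean stands for its gene, and levels are relative to the array's 75th percentile. Accessions matched RefSeq (GRCr8) for 21109 of 45598 probes. All 10 members are named, and others only from a fixed list of iron and haem genes or of cell type markers. Members and lists were chosen with earlier results of these data known. The number of arrays limits the precision. The scaling, the SD and Dixon's ratio were tried on simulated arrays. Background calls, differences between probes or genes, local trends and promoter matches were not. Python 3.11.15, numpy 2.4.6, pandas 2.3.3, scipy 1.17.1 and, for the normexp alternative, limma 3.58.1 in R 4.3.3 were used. Alternatives covered the scaling, background correction, background flag, choice of probe, outlier spots, local trends and replicates. Other settings added after seeing the data were a gene's second probe, leaving out replicates 2 and 4 together, and the settings tried on differences between probes.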

Additional observations from a re-analysis of the deposited data

Results flagged for a closer look

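Of 31 values tested, 3 had 1 array apart from the other 3 by Dixon's ratio, whose critical value chance exceeds in about 1 of 20 groups. The difference between the 2 Fth1 probes had a ratio of 0.892, with replicate 4 at 1.22 log2 units and the others between 0.11 and 0.23. The difference between the 2 Ftl1 probes had a ratio of 0.851, with replicate 4 at 0.56 and the others between 0.15 and 0.21. Among all 812 genes with 2 such probes, 34 (4.19%) exceeded the critical value, in 12 of them with replicate 4 apart and in 11 with replicate 1 apart. The Fth1 spots lay in areas with local deviations between -0.03 and 0.03 log2 units, and the raw median of the second Fth1 spot was also low on replicate 4, at 26430 against 52108 to 74325 intensity units on the others. The level of Alas1 had a ratio of 0.851, with replicate 4 at 7.10 and the others between 6.73 and 6.79.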

How the results depend on the processing

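No paired analysis was possible because the labels hold 1 group. The count of 7 iron genes above background was unchanged in 8 of 9 alternatives and was 8, with Steap3, under the looser flag. The count of 14 in the wider list lay between 11 and 20. The median SD of the 7 genes lay between 0.17 and 0.29 when a replicate was left out and at most at 0.31 in the other alternatives, except 0.48 without scaling and 0.50 when centred on the 7 spike-in probes (0.38 and 0.57 over all genes). With the percentile taken over probes above background it was 0.30, against 0.22 over all genes. With quantile normalization it was 0.31 against 0.22, and with normexp 0.28 against 0.19. With no filter on dim probes the members had 0.31 against 0.43. Without replicates 1 to 4 in turn the median was 0.19, 0.29, 0.18 and 0.17, against 0.20, 0.24, 0.22 and 0.20 over all genes. The SD of the difference between Tfrc and Fth1 was 0.23 with quantile normalization and 0.34 to 0.47 without a replicate, and that between Fth1 and Ftl1 was 0.27 with the second probes. When a replicate was left out, the SD lay between 0.14 and 0.32 for Slc11a1 and Slc11a2 and between 0.39 and 0.79 for Tfrc and Slc11a1. The SDs of Ftl1 and Tfrc were 0.14 and 0.18 without replicate 3, and those of Slc11a1 and Slc11a2 were 0.27 and 0.15 without replicate 4. Without scaling and with spike-in centring, the SD was 0.64 and 0.78 for Tfrc, 0.60 and 0.80 for Ncoa4 and 0.37 and 0.59 for Aco1. For Fth1 it was 0.25 and 0.42, and for Ftl1 0.20 and 0.50. With normexp, whose offset raises dim signals, the levels of all 7 genes were lower, as for Tfrc at 2.62. Of 198 values for single genes, 31 moved. The causes were not tested.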

Other observations

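Several further genes of iron and haem handling were measured on the same arrays. Glrx5, a glutaredoxin of iron-sulphur assembly, stood at 4.41 ± 0.07 (SD, n = 4) with 1 of its 2 probes, and the other passed on no array. Ltf, Hp and Hpx, which encode the iron, haemoglobin and haem carriers lactoferrin, haptoglobin and haemopexin, passed on no array. The same held for the haem transporter genes Flvcr2 and Abcg2 and for Hjv and Bmp6, which act upstream of hepcidin in the liver. Herc2 and Ftmt, the mitochondrial ferritin gene, passed on 2 arrays each, and Tmprss6, a protease that restrains hepcidin, passed on 3, all except replicate 4. Flvcr2, Herc2, Ftmt and Tmprss6 passed on all 4 arrays by the looser flag, as did 50.9% of all genes. Trf, Pcbp1, Fbxl5, Flvcr1 and Neo1 had no probe matched here.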
